A study of Homo sapiens with 9 samples.

Results

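The 49 genes described here encode the cyclin E proteins and their kinase, the E2F transcription factors, and the enzymes and loading factors of DNA replication. They were taken by name from the gene rows of the deposited table; the rule uses no measured value, but the list of names was drawn up with earlier results of these data known. All 49 names were found among 38478 gene rows, and all 49 passed the filter on low read counts that left 13262 genes for testing. OPM-1 is a human cell line established from a plasma cell myeloma, and its messenger RNA was sequenced in 9 libraries, 3 from each of 3 groups. In the gLuc group the cells stably expressed an RNA against luciferase, a gene that human cells lack, and served as control. In the gFBXW7 group the RNA was against FBXW7, and in the gFBXW7 + gKMT2D group RNAs were against both FBXW7 and KMT2D. All groups carry the genotype label WT and no drug or time point is named. How the RNAs act and whether the cells of a group came from 1 clone are not given in the sources used here, and the replicates of each condition are described there as independent and biological.

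Cyclin E binds and activates the kinase CDK2 at the end of the G1 phase, which releases E2F factors from the retinoblastoma protein and lets cells load and fire replication origins. E2F factors in turn drive transcription of the cyclin E genes, of other E2F genes and of much of the replication machinery, so these transcripts usually move together as cells enter S phase. FBXW7 is the substrate-binding part of a ubiquitin ligase that marks phosphorylated cyclin E protein for destruction, and KMT2D is a histone methyltransferase that acts at enhancers. The question of the design is how the RNA of such genes compares between cells with the control RNA and cells with RNAs against FBXW7 or both genes. Read counts measure the cyclin E transcripts and not the cyclin E proteins.

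The E2F binding motif is a feature that many of these promoters share, so 6 promoters are printed that hold it and that come from genes on both sides of the library pattern described below. E2F1, PCNA and GINS2 were high and MCM6, POLA1 and POLE were low in the third gFBXW7 + gKMT2D library. Each line gives the 160 bases before the transcript start in the direction of the gene, from RefSeq on GRCh38.p14, with the motif in capitals.
E2F1 (chr20:33686386-33686545, minus strand): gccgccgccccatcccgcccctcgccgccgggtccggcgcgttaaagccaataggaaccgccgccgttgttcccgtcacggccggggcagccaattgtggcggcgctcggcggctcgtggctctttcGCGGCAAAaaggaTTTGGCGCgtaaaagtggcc
PCNA (chr20:5126623-5126782, minus strand): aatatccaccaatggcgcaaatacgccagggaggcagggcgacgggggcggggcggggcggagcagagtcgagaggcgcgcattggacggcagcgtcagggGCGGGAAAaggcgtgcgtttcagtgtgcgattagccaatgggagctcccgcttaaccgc
GINS2 (chr16:85688955-85689114, minus strand): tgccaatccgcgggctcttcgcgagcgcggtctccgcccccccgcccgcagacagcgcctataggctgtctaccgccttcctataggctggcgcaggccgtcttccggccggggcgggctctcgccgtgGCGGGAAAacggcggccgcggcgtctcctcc
MCM6 (chr2:135876444-135876603, minus strand): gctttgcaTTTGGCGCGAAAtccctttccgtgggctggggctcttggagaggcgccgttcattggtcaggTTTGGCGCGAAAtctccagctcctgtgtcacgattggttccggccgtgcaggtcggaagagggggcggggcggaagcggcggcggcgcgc
POLA1 (chrX:24693758-24693917, plus strand): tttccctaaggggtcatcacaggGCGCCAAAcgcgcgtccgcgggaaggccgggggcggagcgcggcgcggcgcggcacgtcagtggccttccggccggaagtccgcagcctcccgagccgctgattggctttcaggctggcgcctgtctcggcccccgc
POLE (chr12:132687343-132687502, minus strand): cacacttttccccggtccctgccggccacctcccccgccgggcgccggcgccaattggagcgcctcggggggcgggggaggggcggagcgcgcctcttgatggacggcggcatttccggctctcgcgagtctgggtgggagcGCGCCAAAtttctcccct
The motif was searched as TTTCCCGC, TTTGGCGC, TTTCGCGC and TTTGCCGC on both strands, from 250 bases before to 50 bases after the start, with overlapping matches counted. MCM6 holds 4 matches in 2 overlapping pairs, E2F1 holds 2, and the other 4 promoters hold 1 each.

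A promoter was found in the RefSeq table for 42 of the 49 genes. At least 1 match was present in 22 of them (52.4%), against 3.99% of all 27305 genes with a promoter in that table. Counted over promoters, 23 of 55 (41.8%) held a match, against 3.32% of 35116 promoters of the same length. Origin licensing genes held the motif most often, in 7 of 9, including MCM2, MCM3, MCM7, CDC6 and CDT1. It was present in 3 of 4 E2F genes (E2F1, E2F2 and E2F3, but not E2F7), in 3 of 5 helicase genes and in 6 of 14 fork genes. The CCNE1 window held none of these letters, and neither did those of ORC1, RRM2, FEN1 or RPA1. A match describes the letters and is no evidence of binding.

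Sequencing depth was 16337492 to 27076242 assigned reads per library, and the 49 genes together took 0.728% to 0.834% of them. The plasma cell markers were all present, with 8 of 8 tested and a summed level of 2865 to 3518 CPM (read counts relative to library size, here scaled by the trimmed mean of M values). Of 16 markers of other cell types, 2 (PECAM1 and HBB) passed the filter, the 16 summed to 24.4 to 46.1 CPM, and EPCAM, CD2 and COL1A2 had 0 reads in every library. FBXW7 itself was at 47.9 to 53.9 CPM in gLuc, 53.4 to 55.5 in gFBXW7 and 45.2 to 71.7 in gFBXW7 + gKMT2D, and KMT2D at 41.0 to 104.3, 48.8 to 65.1 and 28.6 to 107.0, with no call in any comparison. Reads summed over a whole gene do not show a short change in its sequence or a loss of its protein. How the RNAs act is not given, so whether they should lower these transcripts is not known. For this reason the check neither bears out nor contradicts the labels. The third gFBXW7 + gKMT2D library stood apart from the other 8: ribosomal protein genes took 11.2% of its reads against 5.03% to 8.56% elsewhere.

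That library also stood apart in the replication genes. For each gene the log2 CPM in a library was set against its mean over the 9 libraries, which all libraries share. The spread of these differences over the 49 genes (SD) was 0.44 in the third gFBXW7 + gKMT2D library and 0.08 to 0.27 in the other 8, and the SD over all 13262 tested genes was also highest there, at 0.57. It held the highest value of the 9 libraries for 16 of the 49 genes and the lowest for 25. The share of all 13262 tested genes with such an extreme there was not computed, so these counts are not read as particular to the 49. The genes did not shift as a block: 15 lay more than 0.25 above their mean, 16 more than 0.25 below and 18 within 0.25. Of all tested genes 64.7% lay more than 0.25 from their mean in this library, so the share among the 49 is near that background.

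The low side of this library was led by E2F7 (-1.14 from its mean on the log2 scale), an E2F that represses transcription, and by MCM2 (-1.01), a subunit of the replicative helicase ring. POLA1 (-0.81), the catalytic subunit of the polymerase that starts new strands, the repressor E2F8 (-0.77), the thymidylate synthase gene TYMS (-0.60) and CCNE2 (-0.58) followed. The high side was led by PCNA (0.81), the sliding clamp that tethers polymerases to DNA, MCM4 (0.65), another subunit of the same ring as MCM2, and GINS2 (0.62), a subunit of the GINS complex that activates the ring. SLBP (0.48), which binds the end of histone mRNA, E2F1 (0.47) and CHAF1A (0.47) were also high. Genes of 1 complex and genes with the E2F motif therefore lay on both sides.

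The pattern was not limited to 1 group. The gLuc replicate 2, gLuc replicate 3 and gFBXW7 + gKMT2D replicate 2 libraries lay on the opposite side for 39, 39 and 38 of the 49 genes. Across the 49 genes, gLuc replicate 1 and gFBXW7 replicate 1 ran with the third gFBXW7 + gKMT2D library (Pearson r = 0.61 and 0.54) and gLuc replicate 2 against it (r = -0.82), while the other 3 libraries lay between -0.20 and -0.05. The differences in gLuc replicate 3 and gFBXW7 + gKMT2D replicate 2, which had the widest spread after that library, correlated with each other (Pearson r = 0.95) and inversely with those of the third gFBXW7 + gKMT2D library (r = -0.86 and -0.84). Over all tested genes the last 3 values were 0.74, -0.69 and -0.65, so part of the pattern extends beyond replication genes. With the third gFBXW7 + gKMT2D library, gLuc replicate 1, gFBXW7 replicate 1 and gLuc replicate 2 were at 0.21, 0.31 and -0.60 there. These were weaker than across the 49 genes. The tested genes include some with fewer reads than any of the 49, and the part of read number in this was not tested. These correlations are across genes, which are not independent replicates, and they share the 9-library mean.

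Gene length in the table went along with the pattern. The correlation of a gene's difference with the log2 of its length was 0.56 in gLuc replicate 3, 0.51 in gFBXW7 + gKMT2D replicate 2 and -0.39 in gFBXW7 + gKMT2D replicate 3 across the 49 genes, and 0.45, 0.41 and -0.28 across all tested genes. Other libraries showed such correlations as well: across the 49 genes gFBXW7 replicate 1 was at -0.41, gFBXW7 + gKMT2D replicate 1 at -0.35, gLuc replicate 1 at -0.34 and gLuc replicate 2 at 0.34, while gFBXW7 replicates 2 and 3 were at -0.07 and -0.04. The short genes PCNA and GINS2 and the long genes POLA1 and POLE lay on opposite sides of their means in these 3 libraries, but other genes departed from this order. In gFBXW7 + gKMT2D replicate 3 the long gene E2F3 (9137 bases) was at 0.33 and the short gene TYMS (1583 bases) at -0.60. RFC3, the longest in the table, was at -0.18 there, and MCM4, longer than MCM2, lay with PCNA and GINS2. For some genes the table's length is far from that of the longest coding transcript, as given below. GINS2 has 1180 bases in the table and 2673 in that transcript, and RFC3 has 16948 and 2402. The correlations are given with the table's lengths only. The part of length and of the ribosomal protein share in the pattern was not tested.

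**Figure D1:**
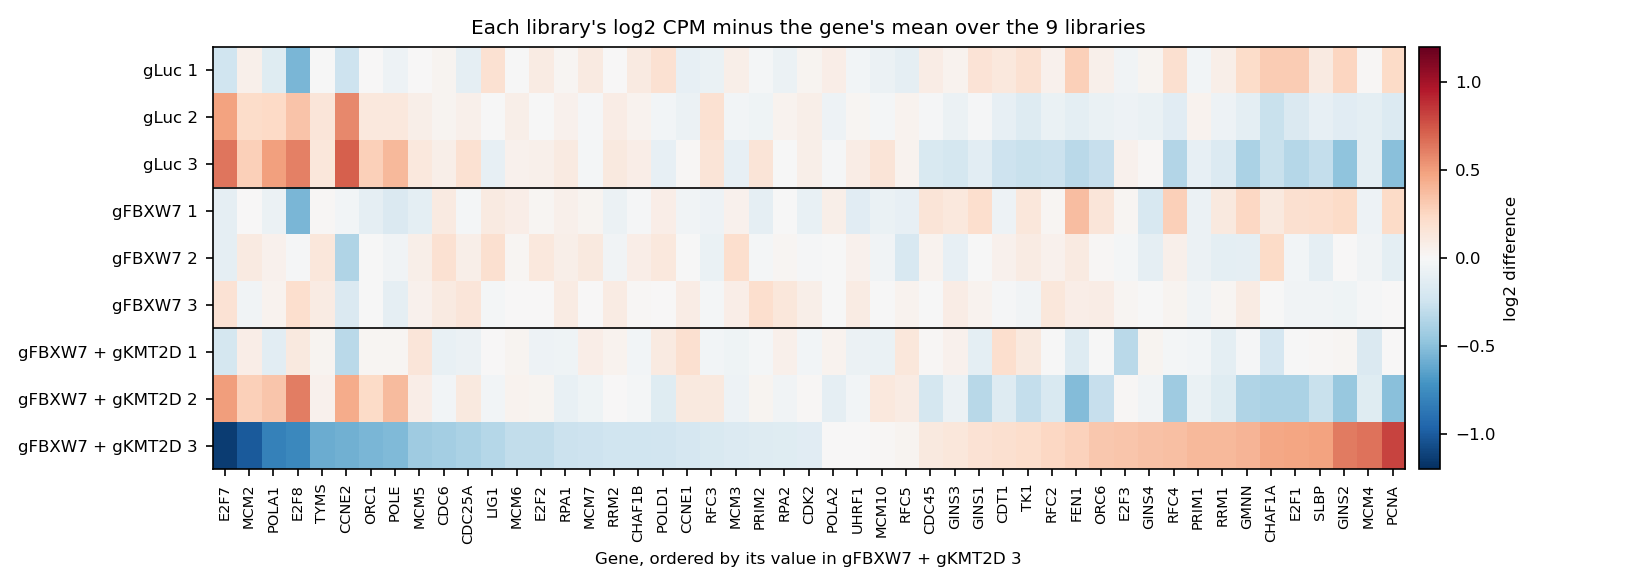
Each cell is a library's log2 CPM minus that gene's mean over the 9 libraries, with libraries in rows by group and the 49 genes in columns ordered by the third gFBXW7 + gKMT2D library. That library runs from -1.14 (E2F7) to 0.81 (PCNA), while gLuc 3 and gFBXW7 + gKMT2D 2 show the opposite colours at both ends and the gFBXW7 libraries are pale.

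**Figure D2:**
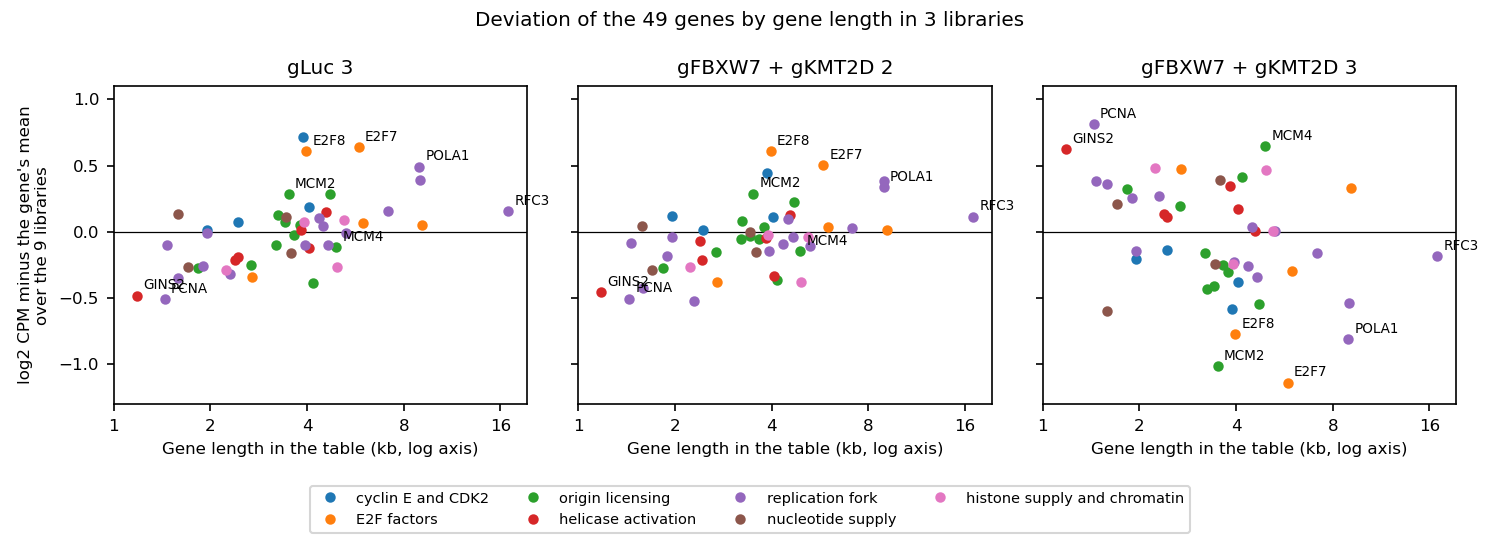
The same log2 differences of the 49 genes are plotted against the table's gene length in kb (log axis), coloured by role. The 3 libraries shown departed most from the mean. RFC3, the longest gene here at 16948 bases, has a longest coding transcript of 2402 bases. The points slope upward in gLuc 3 and gFBXW7 + gKMT2D 2 (r = 0.56 and 0.51) and downward in gFBXW7 + gKMT2D 3 (r = -0.39).

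Levels between genes were compared per length, as RPKM (read counts scaled by gene length and library total). The 49 genes spanned from a mean of 1.46 RPKM for CCNE2 to 315 for PCNA over the 9 libraries. CCNE2 stood at the 74.9th percentile of all gene rows and PCNA at the 99.5th. The lowest count behind any value was 49 reads, for CCNE2 in the third gFBXW7 + gKMT2D library. Lengths in the table are far longer than the longest coding transcript in GENCODE release 29 for RFC3 (16948 against 2402 bases), PRIM2 (7134 against 2308), GMNN (4165 against 1262) and E2F3 (9137 against 4749), which places these 4 low per length. For GINS2 the table's length is the shorter one (1180 against 2673). Levels were therefore also computed with the longest coding transcript, a choice made after the values were seen. Only some of these levels are given below, and all other values and orders rest on the table's lengths.

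Of the 2 cyclin E genes, CCNE1 carried nearly all of the RNA. CCNE1 (chr19:29811898-29824308, plus strand, GRCh38) was at 17.1 ± 1.42 RPKM in gLuc, 17.5 ± 1.30 in gFBXW7 and 17.6 ± 4.21 in gFBXW7 + gKMT2D (SD, n = 3 in each). CCNE2 (chr8:94879770-94896678, minus strand) was at 1.89 ± 0.68, 1.199 ± 0.12 and 1.30 ± 0.66 RPKM. The ratio of CCNE1 to CCNE2 was between 7.69 and 18.2 in the 9 libraries, with a median of 14.1. Their partner kinase CDK2 was the highest of the cyclin E group, at 31.7, 34.9 and 35.8 RPKM in gLuc replicates 1, 2 and 3, 29.2, 31.6 and 34.4 in gFBXW7, and 31.2, 35.03 and 24.7 in gFBXW7 + gKMT2D. CDC25A, the phosphatase that activates CDK2, averaged 24.5 RPKM.

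Among the E2F factors the activators E2F2 (39.0 RPKM on average) and E2F1 (37.2) were the highest. E2F3 was at 8.39, and at 16.1 with its transcript length. The repressors E2F8 (6.75) and E2F7 (3.38) were the lowest. E2F2 was at 40.3, 40.0 and 43.2 RPKM in gLuc, 38.1, 42.3 and 39.8 in gFBXW7, and 37.2, 43.1 and 26.9 in gFBXW7 + gKMT2D, so 1 library of the last group was low. E2F7 varied more, with 2.58, 4.55 and 5.22 RPKM in gLuc, 2.82, 2.90 and 3.62 in gFBXW7, and 2.71, 4.85 and 1.21 in gFBXW7 + gKMT2D. The ratio of E2F1 to E2F7 accordingly ran from 5.96 to 36.3 between libraries, and that of E2F1 to E2F8 from 2.96 to 14.0.

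Origin licensing genes lay between ORC1 (19.7 RPKM on average), a subunit of the origin recognition complex, and MCM4 (135 RPKM). ORC1 was at 18.7, 21.9 and 25.04 RPKM in gLuc, 17.3, 19.1 and 19.6 in gFBXW7, and 19.5, 24.5 and 11.2 in gFBXW7 + gKMT2D. MCM4 was at 132, 129 and 133 RPKM in gLuc, 125, 130.3 and 137 in gFBXW7, and 119.7, 132 and 179.8 in gFBXW7 + gKMT2D. Replicate 3 of the last group was thus lowest for ORC1 and highest for MCM4. MCM2 to MCM7 form a ring with 1 copy of each subunit, and their RNA levels differed by a factor of 1.93 to 8.20 between the highest and the lowest subunit of a library (median 2.34). MCM2 was the lowest of the 6 in all 9 libraries, and the 8.20 came from the third gFBXW7 + gKMT2D library. Of the other subunits MCM5 averaged 115.5 RPKM, MCM3 114, MCM6 87.2, MCM7 77.3 and MCM2 54.0. With transcript lengths MCM3 (114) lay above MCM5 (105.9), and MCM7 (91.6) above MCM6 (88.4). ORC6 (55.6) and CDC6 (55.9) lay close together, below CDT1 (61.7). With transcript lengths ORC6 was at 60.0, CDC6 at 39.75 and CDT1 at 50.9 RPKM, so this order changed too. CDT1 loads the ring with CDC6 and GMNN is its inhibitor, and their order turned with the length used: the ratio of CDT1 to GMNN was 1.84 to 2.64 with the table's lengths and 0.46 to 0.66 with transcript lengths.

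Helicase activation genes ranged from GINS3 (15.6 RPKM) to GINS2 (96.6), both subunits of the 4-part GINS complex. In every library these were also its lowest and highest subunits, with a ratio of 4.69 to 8.56. With transcript lengths the ratio of the highest to the lowest was 1.97 to 3.59, and GINS1 was the highest in 1 library. GINS2 was at 111, 89.95 and 72.9 RPKM in gLuc, 108, 95.6 and 93.9 in gFBXW7, and 96.6, 75.8 and 125 in gFBXW7 + gKMT2D. GINS3 was steadier, at 15.6, 15.5 and 14.4, then 16.5, 14.6 and 17.01, then 16.2, 16.2 and 14.6 RPKM. CDC45 (35.4), which completes the active helicase, MCM10 (33.9), GINS1 (30.4) and GINS4 (23.2) lay between them.

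Fork genes held the highest level of the 49 and varied widely. PCNA was at 352, 286 and 232 RPKM in gLuc, 352, 286 and 318 in gFBXW7, and 309, 237 and 462 in gFBXW7 + gKMT2D, so its groups overlapped and its lowest value was in gLuc and its highest in gFBXW7 + gKMT2D. PRIM2, the large primase subunit, was lowest at 3.45, 3.61 and 4.29, then 3.26, 3.56 and 4.25, then 3.57, 4.02 and 2.76 RPKM. With transcript lengths its mean was 11.2 RPKM, again the lowest of the fork genes, with POLA1 the next lowest. FEN1 (170.1 RPKM), the nuclease that trims Okazaki fragments, was second to PCNA among fork genes, followed by the clamp loader subunit RFC4 (70.4) and the single-strand binding subunits RPA1 (63.0) and RPA2 (53.3). Most other fork genes were in a narrow band: POLD1 (25.03 RPKM), the catalytic subunit of the lagging strand polymerase, LIG1 (24.4), the ligase that joins Okazaki fragments, POLA2 (24.2), RFC2 (22.2), the small primase subunit PRIM1 (19.7), POLE and RFC5 (both 15.5) and POLA1 (10.4). RFC3 was at 5.504 RPKM with the table's length and at 38.8 with its transcript length, which would place it above all of these. The RPA1 to RPA2 ratio was even, at 1.09 to 1.27 (0.98 to 1.14 with transcript lengths), while POLA2 to POLA1 ran from 1.71 to 4.25.

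Nucleotide genes were led by RRM2, the small ribonucleotide reductase subunit, at 170.1, 192 and 201 RPKM in gLuc, 161, 169 and 191 in gFBXW7, and 179, 189.6 and 126 in gFBXW7 + gKMT2D. RRM2 was 1.56 to 2.93 times RRM1, the large subunit. TYMS was the lowest of the 4 nucleotide genes, at 54.1, 64.2 and 65.4, then 54.9, 61.3 and 61.1, then 57.3, 62.9 and 31.5 RPKM. The thymidine kinase gene TK1 averaged 100.2 RPKM. Of the histone and chromatin genes SLBP was highest, at 106, 98.5 and 88.5, then 113, 94.0 and 101, then 102, 91.6 and 121 RPKM, and the chromatin assembly subunit CHAF1B lowest, at 8.19, 8.37 and 8.80, then 7.49, 8.26 and 8.07, then 7.64, 8.38 and 5.65 RPKM. CHAF1A was 4.37 to 9.15 times its partner CHAF1B, and 7.42 to 15.5 times with transcript lengths. UHRF1, which helps copy DNA methylation onto new strands, averaged 25.4 RPKM.

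**Figure D3:**
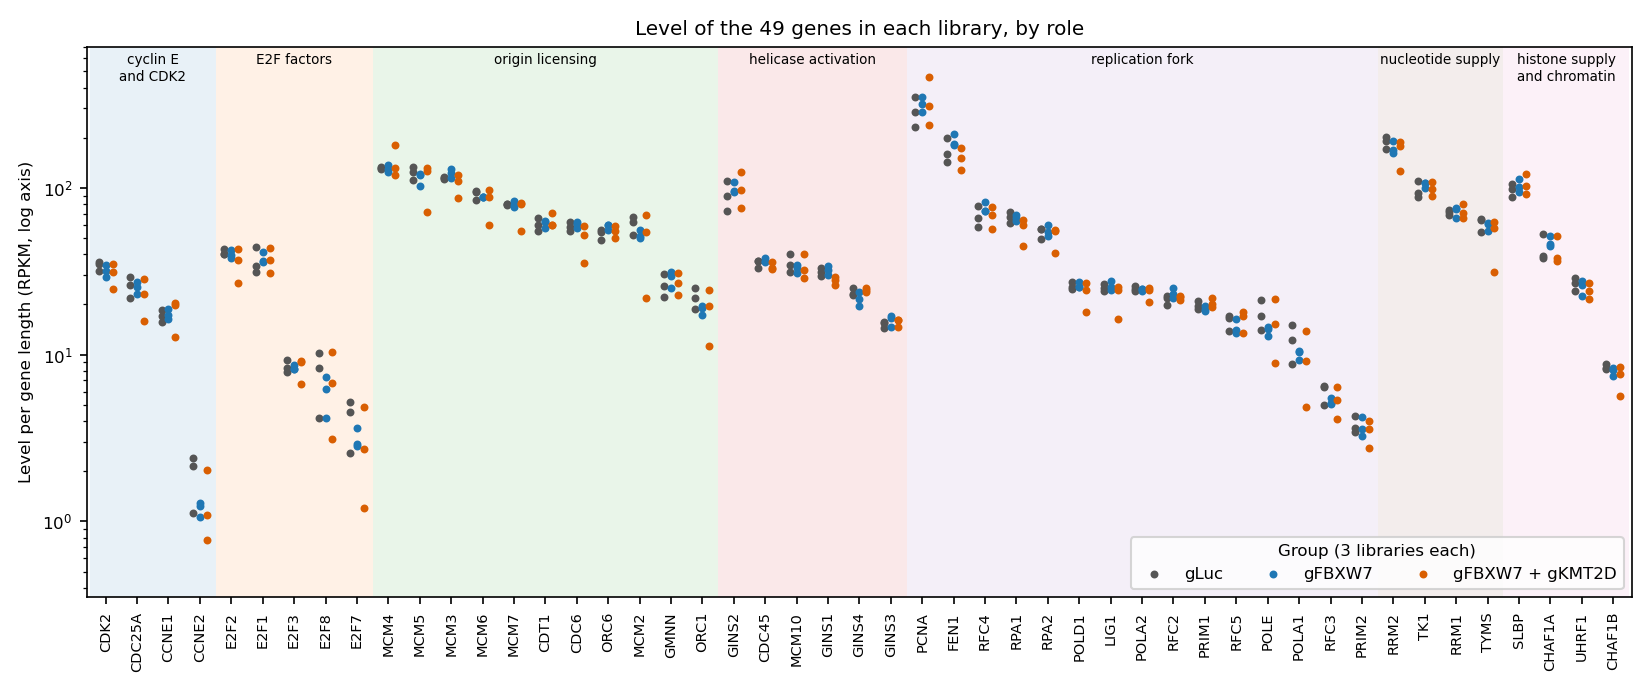
Level of the 49 genes in RPKM (log axis) in each of the 9 libraries, ordered by mean within each role and coloured by group. Levels run from 1.46 (CCNE2) to 315 RPKM (PCNA) on average, and the points of the 3 groups overlap for most genes, with 1 gFBXW7 + gKMT2D library often at an end.

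Annotated pseudogenes with the names of 8 of these genes (E2F3, PCNA, RFC3, RFC5, FEN1, RPA2, RRM2 and TYMS) are in GENCODE release 29, so reads of these could be split or lost between copies and their levels are less certain.

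With the RNA against FBXW7, none of the 49 genes differed from gLuc past the threshold. Genes were tested with the quasi-likelihood test of edgeR, p-values were adjusted by the Benjamini-Hochberg method over the 13262 genes, and the threshold was an adjusted p of 0.05. It called 0 of all tested genes (0%), with 209 at an unadjusted p under 0.05, and DESeq2 called 1. None of the 49 had an unadjusted p under 0.05, and the lowest adjusted p was 0.956. Log2 fold changes were positive for 30 genes and negative for 19, with a median of 0.02 against -0.0042 for all tested genes, and ran from -0.60 (CCNE2) to 0.22 (FEN1).

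CCNE1 was at 31.6, 32.2 and 34.1 CPM in gLuc replicates 1, 2 and 3 and at 32.9, 33.7 and 36.1 in gFBXW7. The 2 groups overlapped, and the log2 fold change was 0.07 (SE 0.13, 95% interval -0.23 to 0.36, edgeR adjusted p = 0.956). CCNE2 was at 4.45, 7.97 and 8.77 CPM in gLuc and at 5.19, 4.11 and 4.69 in gFBXW7. The first gLuc library lay among the gFBXW7 values and the other 2 above them, and the log2 fold change was -0.60 (SE 0.32, 95% interval -1.305 to 0.11, edgeR adjusted p = 0.956). It was -0.84 without gLuc replicate 1, -0.42 without gLuc replicate 3, -0.37 with limma on log2 of RPKM plus 1 and -0.31 with 1 surrogate variable, with no call in any of these.

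The other genes with the smallest unadjusted p in this comparison were POLE, RFC3 and RFC2. POLE, the catalytic subunit of the leading strand polymerase, was at 130.1, 148 and 178 CPM in gLuc and 120.2, 132 and 126 in gFBXW7, with 1 overlapping value and a log2 fold change of -0.27 (SE 0.22). The clamp loader subunits went opposite ways: RFC3 was at 87.4, 105 and 103 CPM in gLuc and 88.9, 87.5 and 90.7 in gFBXW7 (-0.15, SE 0.13), and RFC2 at 43.6, 39.6 and 35.1 and at 42.7, 43.5 and 46.2 (0.16, SE 0.14). All 3 overlapped between groups and had an edgeR adjusted p of 0.956. With 1 surrogate variable they were at -0.08 (POLE), -0.07 (RFC3) and 0.08 (RFC2), without gLuc replicate 3 POLE was at -0.15 and RFC2 at 0.08, and RFC3 was at -0.22 without gLuc replicate 1 and -0.10 without gLuc replicate 2.

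By role, the median log2 fold change was -0.03 for the 4 cyclin E and CDK2 genes, 0.00 for the 5 E2F factors, 0.03 for the 11 licensing genes, 0.09 for the 6 helicase genes, 0.02 for the 15 fork genes, 0.02 for the 4 nucleotide genes and 0.04 for the 4 histone and chromatin genes. Libraries of the 2 groups did not overlap for CDC6, higher in gFBXW7, and for ORC1, lower in gFBXW7, which is 2 of 49 genes beside 8.86% of all tested genes in either direction. The intervals limit how large a difference could be. The 95% interval lay within a 2-fold change for 46 of the 49 genes (93.9%), against 79.4% of all tested genes. It lay within 1.5-fold for 35 (71.4%, against 42.9%). In each of the 3 comparisons the median SE was 0.15 for the 49 genes and 0.21 for all tested genes. Such shares therefore depend on precision as well as on the size of the differences. CCNE2, E2F7 and E2F8 were the 3 whose intervals passed 2-fold.

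Adding the RNA against KMT2D gave no call among the 49 genes either. In gFBXW7 + gKMT2D against gFBXW7, edgeR called 8 of all tested genes (0.0603%) and none of these. Log2 fold changes were positive for 17 genes and negative for 32, with a median of -0.04 against 0.02 for all tested genes, and ran from -0.30 (CDC6) to 0.22 (GINS4). The licensing genes were negative in 9 of 11 and the fork genes in 10 of 15. Nucleotide genes were negative in 3 of 4, as were histone and chromatin genes. The helicase genes were split 3 to 3 and the cyclin E and CDK2 genes 2 to 2, while 3 of 5 E2F factors were positive. In the order named, the role medians were -0.05, -0.08, -0.05, -0.08, 0.03, -0.01 and 0.03. Of all 13262 tested genes 6017 were negative. The edgeR adjusted p was 1 for every one of the 49.

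Of the 49 genes 1 had an unadjusted p under 0.05 from edgeR, beside 560 of all 13262 tested genes. This was CDC6, the ATPase that brings the MCM ring to origins (edgeR unadjusted p = 0.047). It was at 204, 214 and 203 CPM in gFBXW7 and at 178, 185 and 142 in gFBXW7 + gKMT2D, against 193, 193 and 199 in gLuc. All 3 gFBXW7 + gKMT2D values lay below all 6 others, and the log2 fold change from gFBXW7 was -0.30 (SE 0.13, 95% interval -0.59 to -0.01). Without the third gFBXW7 + gKMT2D library it was -0.18.

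RPA1, the large subunit of the single-strand DNA binding protein, showed the same order. It was at 284, 285 and 290.3 CPM in gFBXW7, 262, 255 and 227 in gFBXW7 + gKMT2D, and 277, 281 and 292 in gLuc. Again the 3 gFBXW7 + gKMT2D values were below the other 6. The log2 fold change from gFBXW7 was -0.21 (SE 0.12, unadjusted p = 0.106, edgeR), and -0.14 without the third library. CDC6 and RPA1 were named for small p-values in these same libraries, and the share of all tested genes with this order was not computed. MCM3 was at 378, 419 and 385 CPM in gFBXW7 and 353, 351 and 326 in gFBXW7 + gKMT2D (-0.20, SE 0.12), and these did not overlap, though gLuc, at 382, 356 and 341, did. GINS4 lay the other way, at 78.0, 82.5 and 88.6 CPM in gFBXW7 and 91.1, 86.4 and 113 in gFBXW7 + gKMT2D (0.22, SE 0.13), with 1 value overlapping, and 0.10 without the third library.

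The groups did not overlap for 4 of the 49 genes, all lower in gFBXW7 + gKMT2D (CDC6, MCM3, RPA1 and CHAF1B). Of all tested genes 9.55% did not overlap in either direction, so the share in either direction is near the background. By direction, 690 of all 13262 tested genes were lower and 577 higher. CCNE1 was at 38.6, 36.7 and 29.4 CPM in gFBXW7 + gKMT2D, on both sides of the gFBXW7 values, with a log2 fold change of 0.03 (SE 0.13, 95% interval -0.27 to 0.32, edgeR adjusted p = 1). CCNE2 was at 4.21, 7.26 and 3.52 CPM there (0.12, SE 0.32), and its sign turned when the second gFBXW7 + gKMT2D library was left out (-0.27). The 95% interval lay within 2-fold for 48 of the 49 genes (98.0%, against 80.9% of all tested genes), with E2F8 outside.

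FEN1 was the only one of the 49 that any alternative called. It was at 500.0, 417 and 409 CPM in gFBXW7, 347, 269 and 467 in gFBXW7 + gKMT2D, and 471, 355 and 309.6 in gLuc, so the third gFBXW7 + gKMT2D library lay among the gFBXW7 values and the other 2 below them. The log2 fold change was -0.29 (SE 0.23, edgeR adjusted p = 1). With 1 surrogate variable, estimated by sva from the same counts, as a further term in the edgeR model it was -0.34 (SE 0.07, adjusted p = 0.0485). That model called 0.943% of all tested genes. In this comparison it put 11 of the 49 genes under an unadjusted p of 0.05 (edgeR), beside 2220 of all 13262 tested genes. CDC6 had an edgeR adjusted p of 0.0852 there. The surrogate variable was 0.69 in the third gFBXW7 + gKMT2D library and -0.46 to 0.21 in the others. The same term gave FEN1 an edgeR adjusted p of 0.967 in gFBXW7 against gLuc and 0.214 in gFBXW7 + gKMT2D against gLuc.

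**Figure D4:**
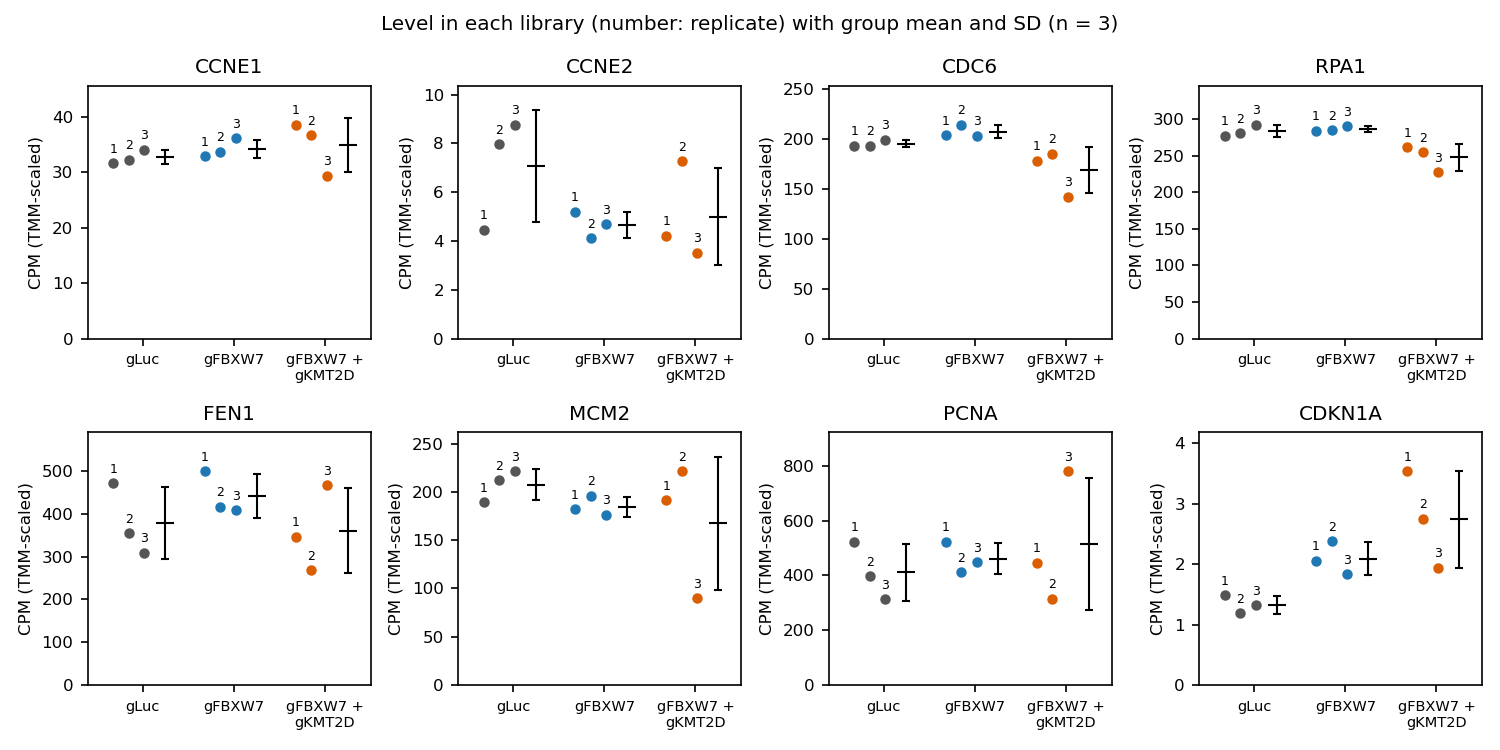
CPM in each library (points, numbered by replicate) with the group mean and SD (n = 3) for 7 of the genes and for CDKN1A. CDC6 and RPA1 have their 3 gFBXW7 + gKMT2D points below all others, while MCM2 (90.1 CPM) and PCNA (781 CPM) have a single distant point in gFBXW7 + gKMT2D replicate 3.

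The groups with both RNAs and with the control RNA were compared last, sharing libraries with the first 2 comparisons. None of the 49 genes passed the edgeR test in gFBXW7 + gKMT2D against gLuc, none had an unadjusted p under 0.05, and the lowest adjusted p was 0.902, while 7 of all tested genes (0.0528%) were called. Log2 fold changes were positive for 20 and negative for 29, with a median of -0.07 against 0.0002 for all tested genes, from -0.47 (CCNE2) to 0.32 (PCNA). Without the third gFBXW7 + gKMT2D library the median was -0.04 and again none was called.

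CCNE1 had a log2 fold change of 0.10 (SE 0.13, 95% interval -0.20 to 0.39, edgeR adjusted p = 0.902) and CCNE2 of -0.47 (SE 0.31, 95% interval -1.17 to 0.22). Leaving out 1 library put CCNE1 between 0.02 (without gFBXW7 + gKMT2D replicate 1) and 0.21 (without replicate 3). CCNE2 was at -0.28 without the third gFBXW7 + gKMT2D library and -0.87 without the second, at -0.72 without gLuc replicate 1 and -0.28 without gLuc replicate 3, and at -0.26 with 1 surrogate variable, so the value rests on which libraries are kept. RPA1 (-0.19, SE 0.12), CDC6 (-0.21, SE 0.13) and CHAF1B (-0.17, SE 0.11) had the smallest unadjusted p beside CCNE2, and were at -0.13, -0.10 and -0.10 without the third library. CHAF1B was at 33.0, 31.5 and 32.3 CPM in gLuc, 30.2, 32.3 and 30.8 in gFBXW7, and 29.9, 30.1 and 25.9 in gFBXW7 + gKMT2D. Its 3 gFBXW7 + gKMT2D values lay below the other 6, an order whose share over all tested genes was not computed.

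Libraries did not overlap for 4 of the 49 genes, all lower in gFBXW7 + gKMT2D (CDK2, CDC6, RPA1 and CHAF1B), beside 6.97% of all tested genes in either direction. By direction, 490 of all 13262 tested genes were lower and 435 higher. After CCNE2, the largest differences belonged to genes that the third gFBXW7 + gKMT2D library set apart. PCNA, at 522, 397 and 314 CPM in gLuc and 446, 314 and 781 in gFBXW7 + gKMT2D, had 0.32 (SE 0.31). MCM2, at 189.5, 212 and 222 CPM in gLuc and 192, 222 and 90.1 in gFBXW7 + gKMT2D, had -0.31 (SE 0.27), with the first 2 of these close to the gLuc values and the last far below them. E2F7 had -0.46 (SE 0.36) and POLA1 -0.34 (SE 0.26). Intervals lay within 2-fold for 46 of the 49 (93.9%, against 78.1% of all tested genes), with CCNE2, E2F7 and PCNA outside.

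**Figure D5:**
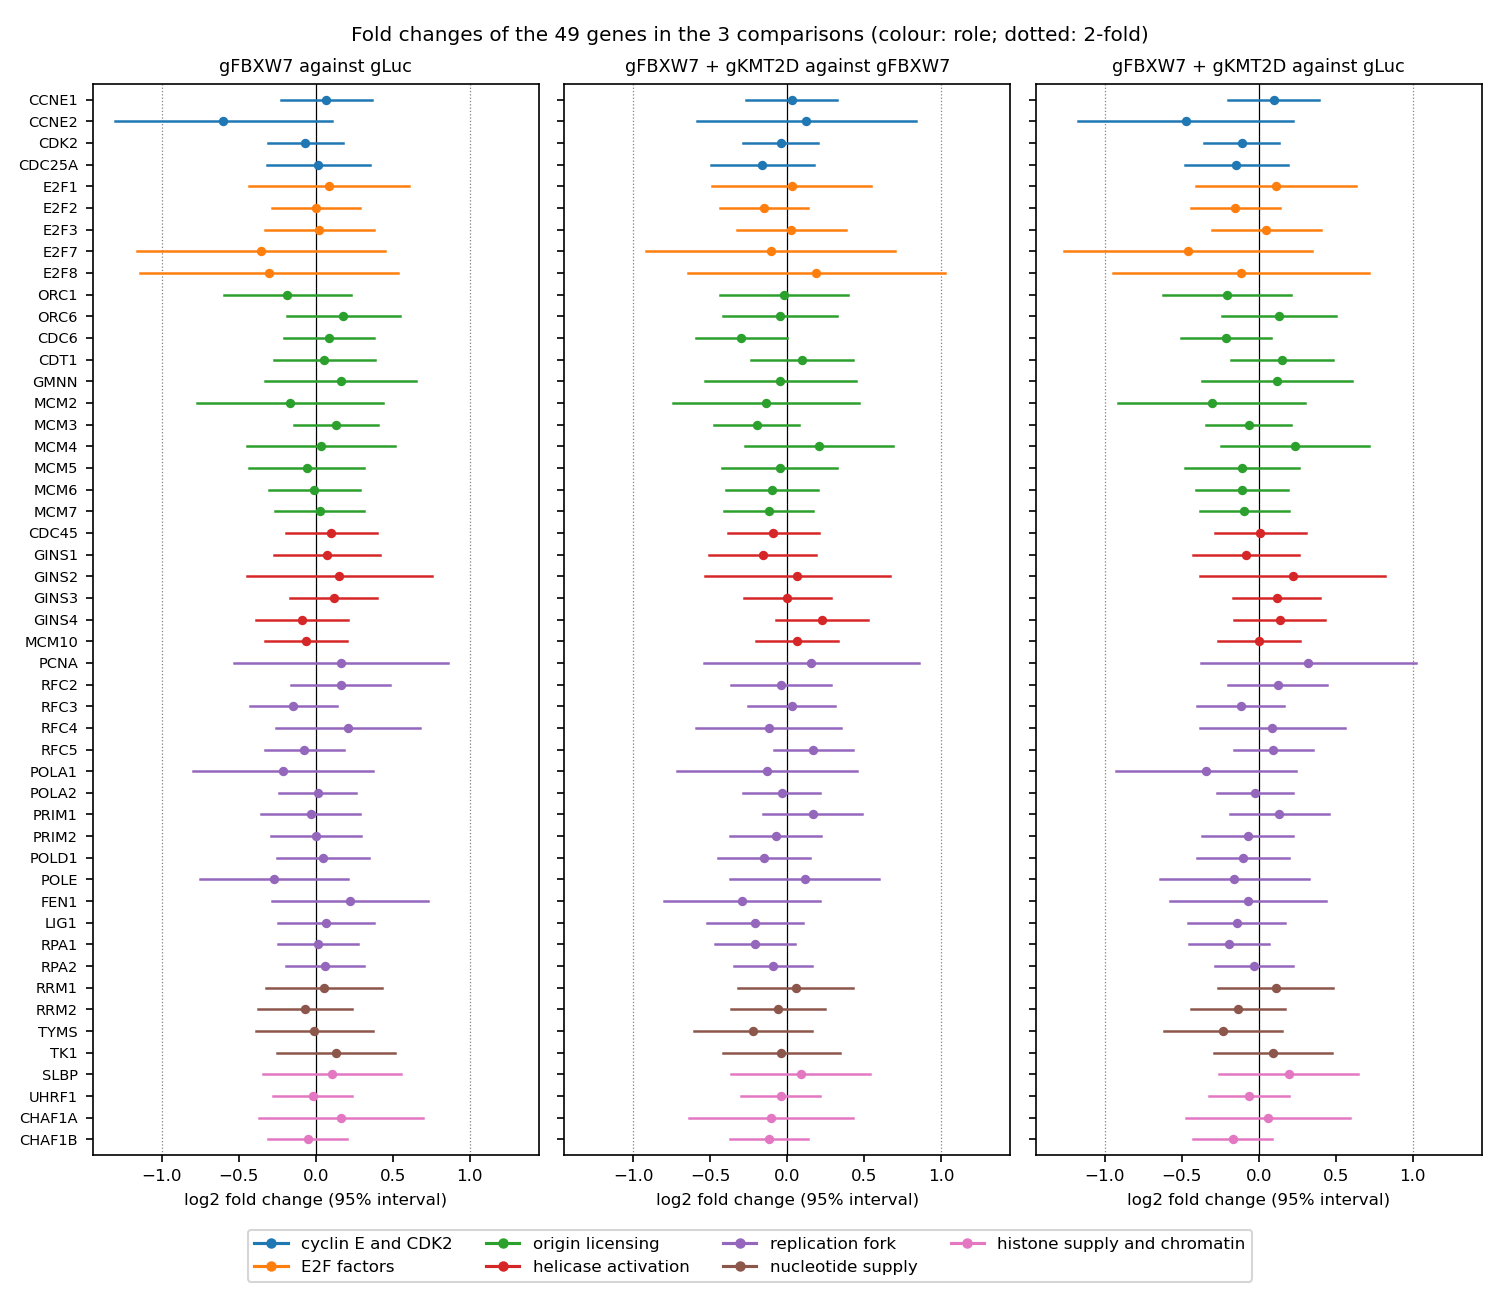
Log2 fold change (point) and 95% interval (line) of each of the 49 genes in the 3 comparisons, coloured by role, with dotted lines at a 2-fold change. All lines but that of CDC6 in the middle panel cross 0, most stay inside the dotted lines, and CCNE2, E2F7 and E2F8 have the widest lines.

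Genes around this pathway, from a list of 23 other regulators of the G1 to S transition and a list of 30 other replication genes, gave the same count. Of the regulators 21 passed the filter (CCND1 and CDKN2C did not) and of the replication genes all 30, and edgeR called 0 in either direction in each of the 3 comparisons, as did DESeq2. An unadjusted p under 0.05 from edgeR was found for 1 of the 51 tested genes in each, CDKN1A in both comparisons with gLuc and POLE2 in gFBXW7 + gKMT2D against gFBXW7. CDKN1A, which encodes the CDK2 inhibitor p21, had the smallest unadjusted p of both lists in both comparisons with gLuc. It was low throughout, at 1.48, 1.19 and 1.32 CPM in gLuc, 2.05, 2.38 and 1.83 in gFBXW7, and 3.54, 2.75 and 1.94 in gFBXW7 + gKMT2D, from 21 to 81 reads. The 3 gLuc values lay below all 6 others, and the share of all tested genes with such an order was not computed. The log2 fold change was 0.65 (SE 0.26, edgeR adjusted p = 0.956) in gFBXW7 and 1.05 (SE 0.25, 95% interval 0.49 to 1.61, unadjusted p = 0.00204, adjusted p = 0.774) in gFBXW7 + gKMT2D against gLuc. With limma on log2 of RPKM plus 1 the values were 0.24 and 0.41, and the gene was left out by the filter at a mean of 50 reads. These comparisons share the gLuc libraries.

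E2F5, an E2F that acts with pocket proteins as a repressor, was at 7.21, 8.65 and 7.80 CPM in gLuc, 6.21, 6.13 and 6.47 in gFBXW7, and 5.90, 7.30 and 5.67 in gFBXW7 + gKMT2D. Its log2 fold changes from gLuc were -0.33 (SE 0.16) and -0.32 (SE 0.16), with edgeR adjusted p of 0.956 and 0.902. In gFBXW7 + gKMT2D against gFBXW7 the smallest unadjusted p belonged to POLE2 and CCNA2. POLE2, a subunit of the leading strand polymerase, was at 5.94, 6.07 and 6.88 CPM in gFBXW7 and 8.54, 6.99 and 9.26 in gFBXW7 + gKMT2D, with no overlap and a log2 fold change of 0.38 (SE 0.16). CCNA2, the S phase cyclin that follows cyclin E on CDK2, was at 180.0, 180.1 and 207 CPM and at 232, 231 and 215 (0.26, SE 0.14), also without overlap, and both had an edgeR adjusted p of 1.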

How the data were processed

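Poly(A)-selected, strand-specific RNA libraries of OPM-1 cells were sequenced, 3 in each of 3 groups. The submitters' processing notes name STAR, featureCounts, Trimmomatic, DESeq2 and GRCh38; versions and the strand setting are not given in the sources used here. The authors deposited, per the file headers, whole read counts and RPKM per gene and library. RPKM recomputed from count, length and column total differed by at most 8.5e-07 (relative). An unnamed row equal to the column sums was left out.

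Counts were tested in R 4.3.3 with edgeR 4.0.16: filterByExpr, scaling by the trimmed mean of M values, group as the only term over all 9 libraries, glmQLFTest, and Benjamini-Hochberg adjustment over 13262 genes at 0.05. Differences from the 9-library mean used log2 CPM with a prior count of 2. Standard errors and 95% intervals come from the F statistic. Alternatives used limma 3.58.1 (also on log2 of RPKM plus 1), DESeq2 1.42.0 and sva 3.50.0.

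The members, lists and tests were chosen with earlier results of these data known. Library values are given for CCNE1, CCNE2, called members, the 4 members of smallest unadjusted p in each comparison, the highest and lowest member per role, and the 2 related genes of smallest p in each comparison. Values of MCM2 and of the genes named for their place in the library pattern were chosen after they were seen.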

Additional observations from a re-analysis of the deposited data

How the results depend on the processing

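Each comparison was recomputed under 11 other settings and without each of the 9 libraries. The count of the 49 genes called stayed 0 everywhere except with 1 surrogate variable, which called 1 (FEN1) in gFBXW7 + gKMT2D against gFBXW7. Leaving out 1 library moved the median log2 fold change of the 49 genes over -0.0022 to 0.0344 in gFBXW7 against gLuc, -0.0667 to -0.0162 in gFBXW7 + gKMT2D against gFBXW7, and -0.069 to -0.0213 in gFBXW7 + gKMT2D against gLuc. With limma on log2 of RPKM plus 1 the median was -0.0149 in the first and -0.13 in the last, and CCNE1 in gFBXW7 + gKMT2D against gFBXW7 was -0.0114 in place of 0.03; the cause was not tested. Without 1 library that CCNE1 value lay between -0.0504 and 0.14, and that of CCNE2 between -0.27 and 0.33. Over all tested genes, calls in the 3 comparisons were 0 to 1, 0 to 125 and 2 to 54 under the other settings, and 0, 0 to 7 and 2 to 8 without 1 library.

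The labels do not say that replicate numbers mark a shared batch, so the numbers were not read as pairs. Same-numbered libraries of different groups correlated from -0.59 to 0.45 in their deviations, and differently numbered ones from -0.74 to 0.72. These values cannot exclude pairing, because the library pattern described above is part of them. With the replicate number as a block, edgeR called 0 of the 49 genes in each comparison, with medians of 0.02, -0.05 and -0.07, and 0, 2 and 2 of all tested genes in place of 0, 8 and 7. CCNE2 rests on 49 to 214 reads per library, the fewest of the 49 genes.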
